A study of Mus musculus with 4 samples.

Results

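Among the gene models on which mouse peritoneal macrophage RNA was counted, 223 assembled genes lay more than 10000 bases from every RefSeq gene on their chromosome. The rule that chose them used name and position, and it was set with earlier results of these data known. Members carry only an assembly name (XLOC and a number). They lie, by both bounds, more than 10000 bases from the bounds of each RefSeq gene on either strand. They made up 223 of 475 assembled genes and of 24625 gene models in all, with the other 252 assembled genes closer to a RefSeq gene or, for 90 of them, overlapping one. RNA came from C57BL/6 mice fed a control diet (standard chow) or a high-fat diet with 60% of its energy as fat for 12 weeks. Every mouse, on either diet, received 3% thioglycollate medium into the peritoneal cavity 4 days before the macrophages were collected, an irritant that draws macrophages there. Each diet had 2 libraries of ribosome-depleted total RNA, in which transcripts without a poly(A) tail can also be counted. The labels do not say whether the libraries came from separate or pooled mice, so p-values measure the spread between these samples, which may be technical.

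Transcript assembly joins overlapping spliced reads into exons and introns and so gives a model to RNA that a reference annotation does not list. Long transcripts between genes that encode no protein, called lincRNAs, are commonly spliced, present at low levels and restricted to few cell types, and many are made near genes that are active in the same cell. RNA can also come from distal enhancers or from unlisted exons of a neighbouring gene. The models say where reads were joined, and whether they encode protein was not tested here.

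To show what was joined, the introns of these genes were compared with GENCODE M21, a later and larger annotation on the GRCm38 build, by intron length, strand and place between the same flanking genes, without converting any mm9 coordinate. Of the 223 genes, 37 (16.6%) shared at least 1 intron length with a GENCODE gene between the same neighbours. In 13 of them an assembled transcript had all the intron lengths of a GENCODE transcript. For several of the 13, XLOC_020244 among them, this was 1 intron length only. Exons and other transcripts of the gene did not have to match, so XLOC_033169 is among the 13 with 2 of its 12 introns matched. Of the 487 introns of all 223 genes, 63 (12.9%) were matched. Separately, 189004 RefSeq introns were looked up by length alone within the GENCODE gene of the same name, and 99.2% were found. The searches differ, so these shares cannot be compared directly. With all lengths made 1 base shorter 2 genes matched, and with all 1 base longer 2 again. GENCODE classes 23 of the 37 as lincRNA, 5 as antisense, 2 as processed transcript, 3 as unprocessed pseudogene and 4 as protein coding. The 252 assembled genes closer to RefSeq were matched about as often, 36 of them (14.3%).

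The sequences below are the first splice junctions of 5 matched transcripts, 5′ to 3′ in the sense of the RNA, as GENCODE M21 gives them, with the 3 bases on each side of the joint in capitals. They are shown because the match rests on the intron that these bases span. Gm4610 matches one of the most abundant members, Gm36888 the member farthest from RefSeq, and Gm26652 the member with one of the longest exon lengths. Gm47754 and AI463229 match members on either strand between Ly86, an MD-1 surface protein of myeloid and B cells, and Rreb1. The GRCm38 positions are those of the introns.
Gm4610, chr3:122377865-122391674, minus strand: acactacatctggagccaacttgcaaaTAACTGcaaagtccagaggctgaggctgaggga
Gm36888, chr3:147626865-147635441, minus strand: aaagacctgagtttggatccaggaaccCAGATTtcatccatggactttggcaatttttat
Gm26652, chrX:19235653-19237690, minus strand: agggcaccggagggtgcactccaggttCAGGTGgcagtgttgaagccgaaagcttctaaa
Gm47754, chr13:37581306-37589153, plus strand: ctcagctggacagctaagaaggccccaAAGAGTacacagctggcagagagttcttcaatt
AI463229, chr13:37658771-37666451, minus strand: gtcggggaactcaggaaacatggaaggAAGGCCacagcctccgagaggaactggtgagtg

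Depth was similar across libraries, from 39347347 to 45658551 counts on genes. Reads in no gene model made up 15.03% and 13.5% of all counted lines with control diet and 14.2% and 14.1% with high-fat diet. Those lines include alignments at more than 1 place (41.5% and 48.5% against 37.5% and 42.6%). As counts, reads in no gene model were 14046827 and 14286089 against 13635556 and 13422267. Gene counts were 39846646 and 39347347 against 45658551 and 40527591, so both control libraries had more such reads on fewer gene counts. Levels below are CPM, the read count of a gene relative to the gene total of the library after TMM scaling, and levels per kb divide these by the summed exon length. Macrophage marker genes summed to 26766 and 25714 CPM with control diet and 19954 and 24405 CPM with high-fat diet. Of the 9 tested, 8 lay below 0 on the log2 scale (median -0.18). Of these markers 1 passed the threshold for diet (edgeR adjusted p under 0.05), lower. Mesothelial and fibroblast markers differed most between the diets of the lists looked at, by their median log2 fold change of 2.15. Their summed levels were 22.2 and 29.4 CPM against 178.5 and 88.1 CPM. All 13 of those tested lay above 0 on the log2 scale, 1 past the threshold, and no marker was at 0 in every library. Neutrophil markers lay the other way, 112 and 116 CPM against 80.9 and 67.3 CPM, with 9 of 9 below 0 and 2 past the threshold. Eosinophil markers (12.4 and 21.9 CPM against 5.39 and 8.36 CPM, 4 of 4 below 0, 1 past the threshold) and dendritic cell markers (16.1 and 16.7 CPM against 9.33 and 14.9 CPM, 6 of 7 below 0, 1 past the threshold) also lay lower, with medians of -1.77 and -1.69. B cell markers summed to 127 and 117 CPM against 116 and 213 CPM, with 10 of 11 above 0 and 1 past the threshold, higher. T and NK cell markers summed to 6.21 and 8.04 CPM against 4.44 and 22.4 CPM. Of these, 5 lay above 0 and 3 below (median 0.91), and none passed. The part of these cells in the diet differences of the assembled genes was not tested.

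Most of the 223 genes were small spliced units. Exons of all transcripts of a gene were merged into blocks: 123 genes had 2 blocks, 54 had 3, 27 had 4, and 18 had 5 to 11. The last, XLOC_008047, had 1 block, because its 3 transcripts splice across each other's exons. A single transcript was assembled for 154 genes, 2 transcripts for 42 and 3 or more for 27. Summed exon length had a median of 1628 bases (255 to 26755), the span from first to last exon a median of 5836 bases (681 to 90112), and the longest intron of a gene a median of 3104 bases. The assembled genes closer to RefSeq had similar structures, with a median of 2 blocks, 1637 exon bases and a span of 5982 bases, but none had more than 6 blocks.

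**Figure D1:**
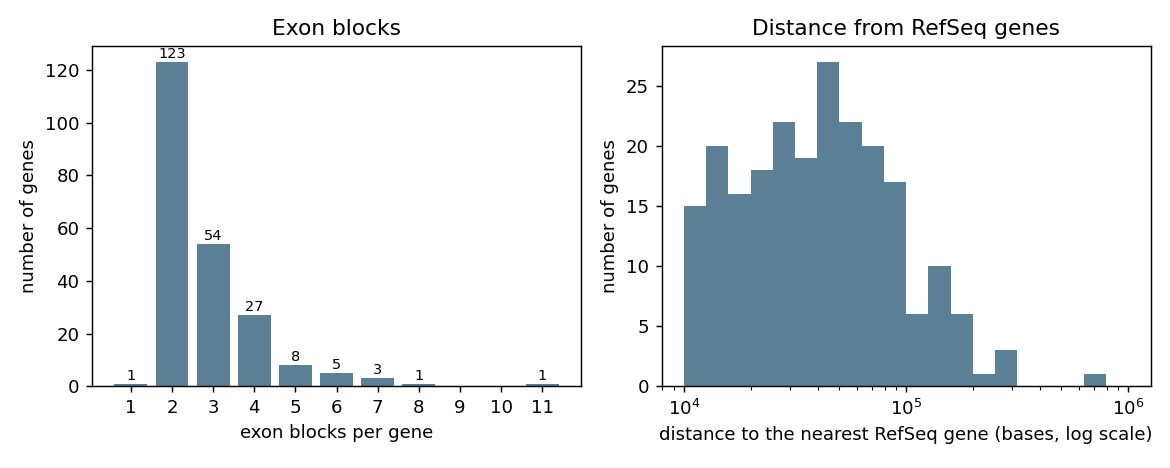
Number of genes by exon blocks (left) and by distance to the nearest RefSeq gene in bases on a log axis (right), over the 223 assembled genes far from RefSeq. The tallest bar on the left holds the 123 genes with 2 blocks, and distances on the right run from 10001 to 640116 bases.

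Distances to the nearest RefSeq gene ran from 10001 to 640116 bases with a median of 40226. Just within the limit on the member side were XLOC_001805, 10001 bases from the interferon-inducible gene Ifi205, and XLOC_030145, 10314 bases from Lpl. Just outside it, and so no members, were XLOC_000370 at 9793 bases from Neu2, XLOC_008385 at 9720 bases from 1700029N11Rik and XLOC_031491 at 9604 bases from Prss42. Farthest from any RefSeq gene were XLOC_020374 (640116 bases from Ttll7), XLOC_008047 (302784 bases from 3110015C05Rik), XLOC_021654 (258708 bases from Sec61b) and XLOC_002163 (253347 bases from Prdm1). The nearest RefSeq gene was on the same strand for 107 members and on the opposite strand for 116. In the direction of that neighbour's transcription, 135 members lay upstream of it, counting 65 on its strand and 70 opposite, and 88 downstream, counting 42 and 46.

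Members were on 20 chromosomes, with 28 on chromosome 10, 25 on chromosome 1 and 3 on chromosome 7. In 158 cases a member was the only one between its flanking RefSeq genes, and 65 members shared 26 intervals. The fullest interval held 5 members between Ado, encoding a thiol dioxygenase, and Zfp365 on chromosome 10. The other 10 intervals with 3 members each lay beside genes that include Jun, Klf7, Creb1 and Prdm1, which encode transcription factors, Lpl, which encodes lipoprotein lipase, and Igf1, which encodes a growth factor that macrophages secrete. These neighbours were picked out after their names were seen. Members overlapped each other in 4 pairs, 3 of them on opposite strands and 2 with overlapping exons. The sources used here do not say whether counting was by strand. Reads on exon bases that opposite-strand partners share may therefore not be told apart. XLOC_020821, which matches Junos of GENCODE, and XLOC_021838, both beside Jun, overlap on opposite strands by their bounds.

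Levels were low. Mean level had a median of 1.03 CPM (0.112 to 47.2): 115 members reached 1 CPM, 30 reached 5 CPM and 18 reached 10 CPM. Counts over all 4 libraries together ran from 18 to 7826 with a median of 169. Per kb of exon the median was 0.613 CPM. Among genes that passed the filter on low counts, the median level per kb was 0.647 CPM for these members, 0.715 for the assembled genes closer to RefSeq, 1.37 for RefSeq noncoding genes and 6.02 for RefSeq coding genes. Members with 4 or more exon blocks had a median of 0.756 CPM per kb (45 genes) and those with 2 or fewer a median of 0.563 (124 genes). The 13 members with an assembled transcript that matched all introns of a GENCODE transcript had a median of 0.985 CPM per kb.

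The highest level per kb was that of XLOC_010232 (chr15:58076441-58084938, plus strand, mm9), also the member with most structure: 11 exon blocks and 13 transcripts within 8498 bases. It lay 29994 bases upstream of Fbxo32, a ubiquitin ligase subunit of muscle wasting, on the opposite strand. Its levels were 37.9 and 46.6 CPM with control diet against 52.8 and 39.6 CPM with high-fat diet, which overlapped. It held 16.1 CPM per kb on average, more than Fbxo32 itself, which had 11.7 CPM per kb.

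XLOC_020244 (chr3:122080015-122094913, minus strand), the member that matches Gm4610, came next with 10.1 CPM per kb. It has 2 exons around an intron of 13810 bases and lay 27785 bases upstream of Bcar3, an adaptor of Cas signalling, on the opposite strand. Its levels were 6.83 and 8.60 CPM with control diet against 10.2 and 18.2 CPM with high-fat diet. The groups did not overlap, the higher value came from high-fat replicate 2, and the difference did not pass the test (log2 fold change 0.88 ± 0.29 SE, adjusted p = 0.219 by edgeR's quasi-likelihood test).

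XLOC_013338, which matches CT030661.1, a gene GENCODE classes as protein coding, lay 23075 bases downstream of the zinc finger gene Zfp944 and had the highest mean level of all members, 47.2 CPM. It measured 42.1 and 46.3 CPM with control diet against 50.7 and 49.6 CPM with high-fat diet. XLOC_008540, which matches Platr25, lay 46843 bases upstream of 6720489N17Rik and measured 16.5 and 18.1 CPM against 20.8 and 19.6 CPM. In both genes the high-fat libraries lay above the control libraries, and neither difference passed the test (log2 fold changes 0.18 ± 0.10 and 0.22 ± 0.13 SE, adjusted p = 0.375 and 0.399 by edgeR). Reads that align at more than 1 place formed a separate line of the count tables, 37.5% to 48.5% of all counted lines, so members that resemble other genes may be undercounted.

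Other abundant members had no match in GENCODE. XLOC_022951 lay between Lrrc8c and Lrrc8d, genes of volume-regulated anion channel subunits, 39933 bases upstream of Lrrc8d on its strand. It measured 16.9 and 21.1 CPM against 22.4 and 27.2 CPM, without overlap (log2 fold change 0.39 ± 0.15 SE, edgeR adjusted p = 0.254). XLOC_019441, between Rpl34 and the transcription factor gene Lef1 and 143620 bases from the nearer, measured 30.4 and 29.1 CPM against 26.9 and 29.6 CPM. XLOC_013011, 77100 bases upstream of Plcl2, measured 41.3 and 47.2 CPM against 52.6 and 37.4 CPM. In both, as in XLOC_006853 (16.9 and 17.7 CPM against 14.4 and 20.4 CPM) and XLOC_032083 near Plekho2 (6.53 and 7.24 CPM against 6.70 and 6.51 CPM), the diets overlapped.

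**Figure D2:**
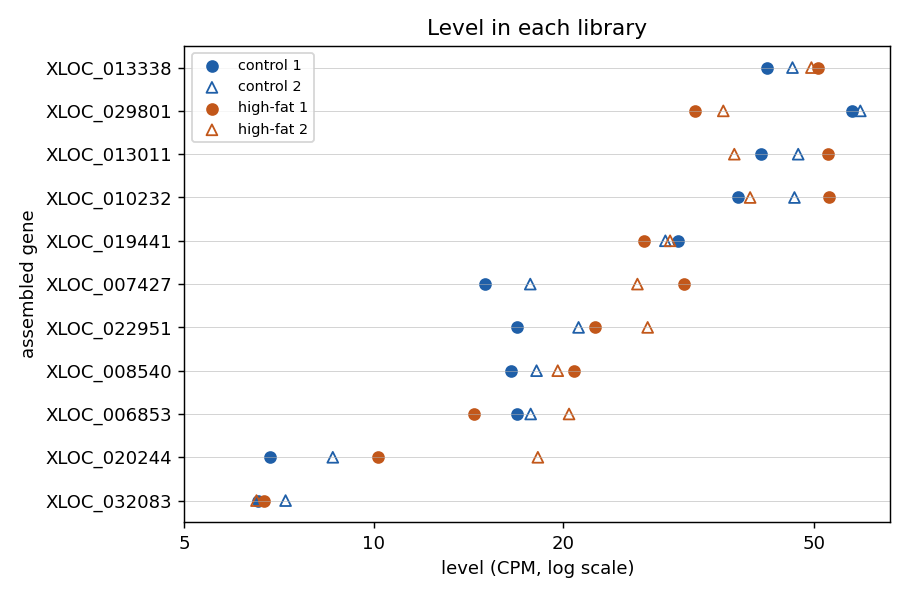
Level in each of the 4 libraries (CPM, log axis) for the 10 members with the highest level per kb of exon and the 2 that passed the test for diet, 11 genes in all. Blue marks are control libraries and orange marks high-fat libraries. XLOC_007427 lies higher in both high-fat libraries and XLOC_029801 lower, while XLOC_010232, XLOC_013011 and XLOC_032083 overlap.

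The longest summed exon lengths were those of XLOC_029801 (26755 bases), XLOC_033169 (21798), XLOC_029267 (10969) and XLOC_000917 (9953). XLOC_033169 (chrX:18775178-18814996, minus strand), which matches Gm26652 with 2 of 12 introns, had 7 exon blocks and 9 transcripts and lay 51081 bases upstream of Mir222, a microRNA gene, on the same strand. It measured 23.9 and 22.1 CPM with control diet and 22.4 and 21.5 CPM with high-fat diet, which overlapped. The other members with most blocks were XLOC_005032 near B3gnt2 (8 blocks, 2.31 and 2.47 against 2.15 and 1.70 CPM), XLOC_003097 near Gp49a and XLOC_003399 near Igf1 (7 blocks each). XLOC_003097 (chr10:51128464-51174113) lay 26305 bases upstream of Gp49a, an immunoglobulin-like receptor gene of myeloid cells, on the opposite strand. It measured 15.5 and 14.5 CPM against 17.5 and 21.8 CPM, apart but not past the test (log2 fold change 0.39 ± 0.15 SE, edgeR adjusted p = 0.237), beside a log2 fold change of -0.04 for Gp49a.

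The diet comparison asked which of these RNAs differed between macrophages of mice on the 2 diets. Of 12747 genes tested with edgeR, 78 passed an adjusted p of 0.05 (0.612%), 41 higher with high-fat diet (0.322%) and 37 lower (0.29%). The filter on low counts kept 204 of the 223 members, and the 19 left out had 18 to 46 counts in all. XLOC_007427 rose and XLOC_029801 fell, and no other member passed. At an unadjusted p under 0.05 there were 53 of 204 members (26.0%), 43 lower and 10 higher, against 17.0% of all genes tested.

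XLOC_007427 (chr13:5885660-5928342, plus strand, 3 exon blocks, 2689 exon bases) begins 16021 bases downstream of Klf6, a zinc finger transcription factor gene, on the same strand, and 619061 bases before Pitrm1. It measured 15.005 and 17.7 CPM with control diet and 31.1 and 26.2 CPM with high-fat diet. Both high-fat values lay above both control values (log2 fold change 0.81 ± 0.14 SE, adjusted p = 0.0456 by edgeR's quasi-likelihood test). Klf6 itself stood at 594 ± 1.24 and 651 ± 30.7 CPM (SD, n = 2 per diet), with a log2 fold change of 0.13 that did not pass (edgeR adjusted p = 0.535). The adjusted p of XLOC_007427 lay between 0.0519 and 0.190 under limma-voom, a filter by CPM, a fit without the robust step, a replicate block and without either control library. No sequence is shown for either gene that passed, since neither matched a GENCODE transcript.

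XLOC_029801 (chr8:130672447-130701979, plus strand, 3 exon blocks) is almost all exon, with 26755 of 29533 bases. It lay in a gene-poor interval, 536261 bases after the polarity gene Pard3, on the same strand, and 100069 bases before Mir21c. It measured 57.5 and 59.3 CPM with control diet and 32.4 and 35.9 CPM with high-fat diet, and the diets were well apart (log2 fold change -0.77 ± 0.10 SE, adjusted p = 0.0190 by edgeR). Its adjusted p was 0.0623 with control replicate 1 left out and 0.0605 with control replicate 2 left out, at nearly the same fold change (-0.81 and -0.75). Pard3 was almost absent, with 0.0994 and 0.103 CPM against 0.366 and 0.200 CPM, and Mir21c was listed at 0. The other member of the interval, XLOC_029811, begins 24725 bases farther on the same strand: it measured 2.21 and 1.49 CPM against 0.668 and 0.551 CPM, without overlap (log2 fold change -1.60 ± 0.34 SE, edgeR adjusted p = 0.0705).

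Beyond these, most members lay below 0. Fitted without a filter, 166 of the 223 members had a log2 fold change below 0 and 57 above, with a median of -0.36, whereas 50.5% of 17380 genes lay below 0 with a median of -0.0043. Among the 204 members tested, 153 lay below 0 with a median of -0.34. The same median was -0.27 for the assembled genes closer to RefSeq (176 of 240 below 0), -0.18 for RefSeq noncoding genes (445 of 675) and 0.0072 for RefSeq coding genes (49.0% below 0). Whether these classes of genes differ from each other was not tested. Both high-fat libraries lay below both control libraries for 100 of the 204 members (49.0%, against 24.9% of all genes tested) and above them for 24 (11.8%, against 26.1%). Without any 1 library the median ran from -0.42 to -0.26, with 68.8% to 75.3% of the members tested below 0.

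**Figure D3:**
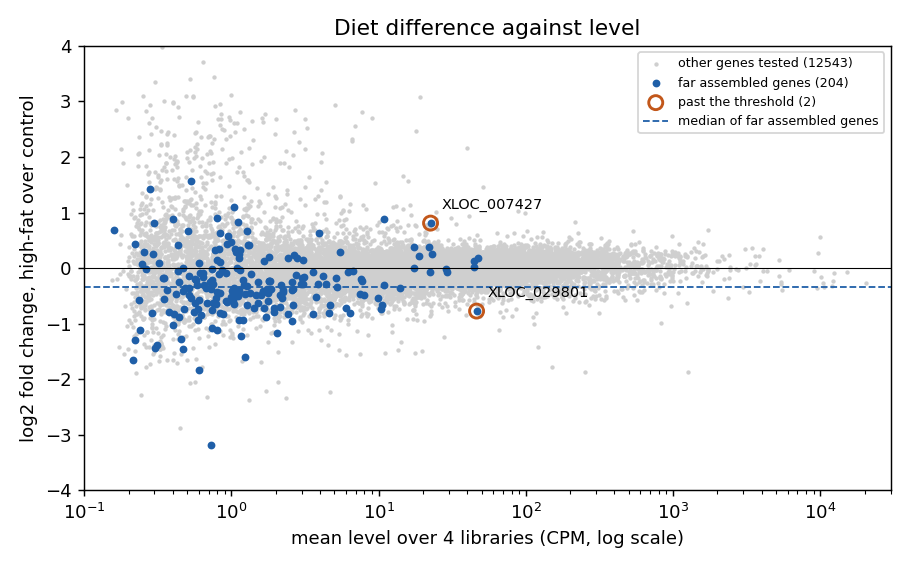
Log2 fold change (high-fat over control) against mean level over 4 libraries (CPM, log axis) for the 204 members tested (blue) and 12543 other genes (grey, with 3 beyond the plotted range). The dashed line is the members' median of -0.34. Most blue points lie below 0 at low levels, and the circled points are XLOC_007427 and XLOC_029801.

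The 2 libraries of a diet did not contribute equally. Of the 204 members tested, 89 (43.6%) were highest in control replicate 2 and 100 (49.0%) lowest in high-fat replicate 2, against 20.1% and 31.9% of all genes tested. Control replicate 1 was highest for 54 members (26.5%, against 31.0% of all genes tested). High-fat replicate 1 was lowest for 54 (26.5%, against 17.9%). The median CPM of these members was 1.08 and 1.28 with control diet and 1.04 and 0.989 with high-fat diet. All members together took 0.0761% and 0.0786% of gene counts with control diet and 0.0730% and 0.0694% with high-fat diet. The widest exact (Clopper-Pearson) 95% interval ran from 0.0777% to 0.0794%, and it covers counting error only. The diets did not overlap in this share (log2 ratio -0.12). With reads in no gene model added to the total the ratio was -0.071, and control replicate 1 (0.056229%) and high-fat replicate 1 (0.056221%) nearly coincided. On the share of gene counts, an exact two-sided permutation test gave p = 0.333, the smallest that 2 against 2 libraries allow.

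**Figure D4:**
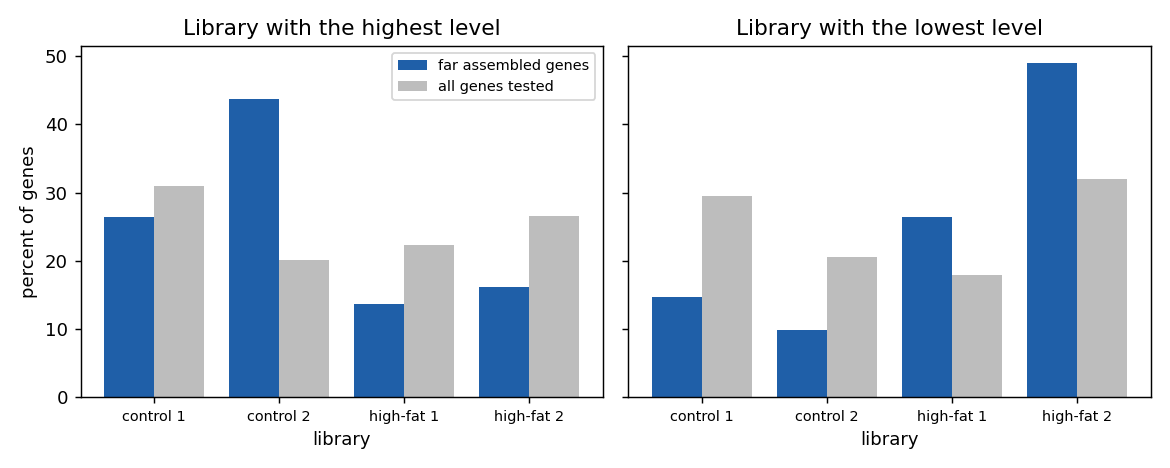
Percent of genes whose highest level (left) or lowest level (right) was in each library, for the 204 members tested (blue) and all 12747 genes tested (grey). Members were most often highest in control replicate 2 (43.6%) and lowest in high-fat replicate 2 (49.0%).

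The shift was smaller among abundant members. The 30 members of at least 5 CPM had a median of -0.072, with 19 below 0, and the 4 groups at lower levels had medians from -0.39 to -0.31. Groups by exon blocks had medians from -0.38 to -0.24 and groups by distance from RefSeq medians from -0.45 to -0.28. Members on the strand of their nearest RefSeq gene had a median of -0.31, and those opposite to it -0.36. The 34 tested members with a GENCODE match had a median of -0.073, with 20 below 0, and the 170 without one a median of -0.38, with 133 below 0. Of the 12 tested members with an assembled transcript that matched all introns of a GENCODE transcript, 4 lay below 0 and 8 above (median 0.28). The differences between these groups were not tested.

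The lowest fold changes among members of at least 0.5 CPM whose diets did not overlap were not past the threshold, and rested on 98 to 335 counts over the 4 libraries together. XLOC_020436, 12176 bases upstream of 4930412C18Rik on its strand, measured 0.696 and 1.91 CPM with control diet and 0.0862 and 0.200 CPM with high-fat diet. These were 28 and 74 counts against 4 and 8 (log2 fold change -3.18 ± 0.64 SE, edgeR adjusted p = 0.0699), and control replicate 2 stood highest. Both high-fat counts were below the filter's minimum count of 10, so the control libraries alone kept XLOC_020436 in the test. XLOC_020667 near AI427809 measured 0.820 and 1.08 CPM against 0.345 and 0.175 CPM (log2 fold change -1.84), and XLOC_006374 near 5830428M24Rik 1.76 and 1.52 CPM against 0.819 and 0.576 CPM (-1.23). XLOC_009870, 12016 bases downstream of Bnip3l, a mitophagy receptor gene, measured 3.03 and 2.65 CPM against 1.53 and 0.976 CPM (-1.17), while Bnip3l had a log2 fold change of -0.07. XLOC_009912, 17724 bases from the adaptor gene Dok2, measured 1.24 and 0.927 CPM against 0.452 and 0.551 CPM (-1.11), with Dok2 at -0.11. In each of these, both high-fat libraries lay below both control libraries, as the way they were picked required. Fitted without the low-count filter, where 522 of 17380 genes passed, XLOC_020436, XLOC_020667, XLOC_006374 and XLOC_009870 passed, as did XLOC_029811 and XLOC_000917 (edgeR adjusted p from 0.00285 to 0.0422).

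On the higher side, XLOC_003447 near 5730420D15Rik measured 0.373 and 0.155 CPM against 0.689 and 0.901 CPM (log2 fold change 1.57 ± 0.48 SE, edgeR adjusted p = 0.167). XLOC_001805 lay between Ifi202b and Ifi205, interferon-inducible genes, and matches Gm18445, which GENCODE classes as an unprocessed pseudogene. It measured 0.745 and 0.567 CPM against 0.862 and 1.98 CPM (log2 fold change 1.10 ± 0.44 SE, edgeR adjusted p = 0.259), and high-fat replicate 2 made most of the difference. Its reads could be shared with copies of this gene family, so its level is uncertain. XLOC_021654, between Sec61b and the nuclear receptor gene Nr4a3, measured 0.422 and 0.361 CPM against 0.582 and 0.676 CPM (log2 fold change 0.68).

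XLOC_016068 lay 14930 bases upstream of Il1rn, which encodes the interleukin-1 receptor antagonist, on the same strand. It measured 0.820 and 0.773 CPM with control diet and 1.14 and 1.70 CPM with high-fat diet (log2 fold change 0.83 ± 0.33 SE, edgeR adjusted p = 0.259). The other member between Il1f10 and Il1rn, XLOC_017436, is on the opposite strand and measured 0.795 and 0.876 CPM against 1.06 and 1.28 CPM (log2 fold change 0.48, edgeR adjusted p = 0.470). Il1rn itself stood at 1344 and 1304 CPM against 1748 and 2500 CPM (log2 fold change 0.68, edgeR adjusted p = 0.109). In these 3 genes both high-fat libraries lay above both control libraries, high-fat replicate 2 stood highest, and none passed the test. Both high-fat libraries lay above both control libraries for 26.1% of all genes tested and 11.8% of the members tested. XLOC_016068 was picked among members whose diets did not overlap.

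Between Lpl, whose product releases fatty acids from lipoproteins, and Slc18a1, a monoamine transporter gene, 3 members lay on chromosome 8. The one nearest to Lpl, XLOC_030145, is on the opposite strand and measured 0.696 and 0.696 CPM with control diet and 0.323 and 0.175 CPM with high-fat diet (log2 fold change -1.45 ± 0.44 SE, edgeR adjusted p = 0.169). XLOC_029266 and XLOC_029267 are on the strand of Lpl. They measured 2.09 and 2.01 CPM against 1.55 and 1.45 CPM (log2 fold change -0.45) and 14.7 and 16.5 CPM against 13.4 and 10.8 CPM (-0.36). Lpl stood at 3776 ± 82.8 and 2788 ± 172 CPM (SD, n = 2 per diet), with a log2 fold change of -0.44 and an edgeR adjusted p of 0.141. All 4 were lower in both high-fat libraries than in both control libraries, and none passed. The same held for 24.9% of all genes tested and 49.0% of the members tested. Other intervals with 3 members varied: between 4930572O13Rik and Zmiz1 all 3 lay lower in this way. Between Jun and Fggy, and between Klf7 and Creb1, 1 member did. Between Hmga2 and 4921513I03Rik none did, and 1 member lay higher in both high-fat libraries.

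Between Ado and Zfp365, 337.15 kb apart, 4 members were on the plus strand and 1 on the minus strand. XLOC_002289, 40300 bases from Ado, was the most abundant with 12.4 and 11.5 CPM with control diet against 9.95 and 9.44 CPM with high-fat diet. XLOC_002285, the nearest to Ado, measured 3.23 and 2.11 CPM against 1.96 and 1.30 CPM, and XLOC_003195, on the minus strand, 2.09 and 3.09 CPM against 2.02 and 1.83 CPM. XLOC_002293 measured 2.48 and 2.70 CPM against 1.74 and 1.83 CPM, and XLOC_002295 0.596 and 0.644 CPM against 0.517 and 0.551 CPM. In all 5 both high-fat libraries lay below both control libraries, with log2 fold changes from -0.71 to -0.22, and none passed (edgeR adjusted p from 0.287 to 0.788). The same held for 24.9% of all genes tested and 49.0% of the members tested. Whether the interval as a whole differed between diets was not tested. Ado had a log2 fold change of 0.11, and Zfp365 had at most 0.151 CPM in any library.

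**Figure D5:**
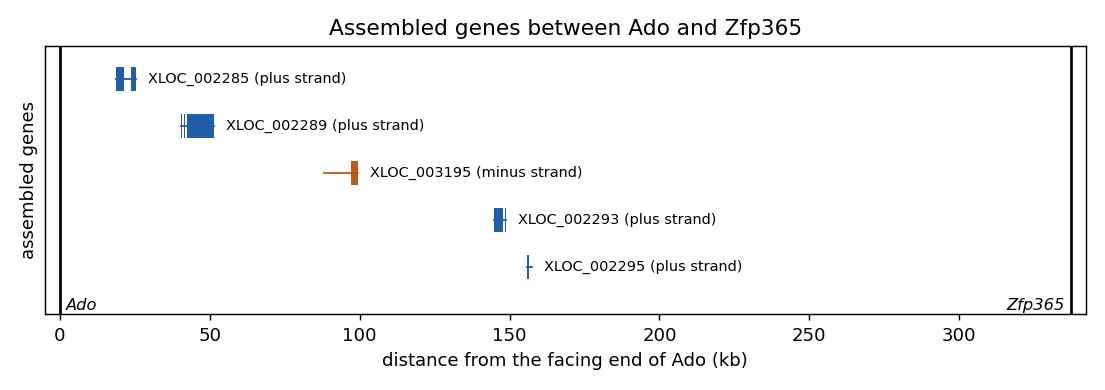
Exons (boxes) and introns (lines) of the 5 assembled genes between Ado and Zfp365, by distance in kb from the end of Ado that faces them. Plus-strand genes are blue and the minus-strand gene orange. The 5 genes lie in the first part of the 337.15 kb interval, nearer to Ado than to Zfp365.

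XLOC_000917 (chr1:193089615-193117955, plus strand) matches Gm37168 with 3 of 6 introns and lay between Atf3, a stress-induced transcription factor gene, and Nenf, 12721 bases from Nenf. It measured 13.7 and 12.1 CPM against 8.68 and 7.51 CPM (log2 fold change -0.67 ± 0.15 SE, edgeR adjusted p = 0.0849). Nenf measured 14.4 ± 1.06 and 10.3 ± 0.664 CPM (SD, n = 2 per diet, log2 fold change -0.48, edgeR adjusted p = 0.156), and Atf3 had a log2 fold change of -0.26. XLOC_003399, 53145 bases upstream of Igf1 on the opposite strand, measured 0.870 and 0.979 CPM against 0.517 and 0.576 CPM (log2 fold change -0.76), beside -0.27 for Igf1. In both members the diets did not overlap, and neither passed.

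Of the most distant members, XLOC_008047 (chr13:111693700-111698893, plus strand), which matches Gm38397, measured 2.73 and 3.17 CPM against 2.20 and 2.33 CPM (log2 fold change -0.38), without overlap. XLOC_002163, far upstream of Prdm1, a transcriptional repressor gene, measured 0.646 and 1.18 CPM against 0.776 and 0.400 CPM. XLOC_020374, which matches Gm36888, had 10 counts and 0 counts with control diet against 17 and 1 with high-fat diet. It was the only member at 0 in a library, where 3 counts would be 0.0773 CPM, and replicates differed more than diets. In XLOC_002163 the diets overlapped too.

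The flanking RefSeq genes were described in the same way. The nearest RefSeq genes of all members were 194 distinct genes, of which 151 were tested. Of these, 95 lay below 0, with a median of -0.073, against 50.8% and a median of -0.0054 over all genes tested, and their median level was 10.7 CPM per kb. By edgeR, 2 of the 151 passed, against 0.612% of all genes tested. Car6, a secreted carbonic anhydrase gene, rose from 7.04 ± 1.61 to 22.3 ± 1.99 CPM (SD, n = 2 per diet, log2 fold change 1.66), and XLOC_021374, 15016 bases away, had a log2 fold change of 0.084. Plxna1, a semaphorin receptor gene, fell from 145 ± 26.8 to 79.0 ± 10.01 CPM (SD, n = 2 per diet, log2 fold change -0.88), and XLOC_024915 and XLOC_025860 beside it had -0.34 and -0.46. Whether members differed from their neighbours was not tested.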

How the data were processed

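The deposited values are raw counts per gene, whole numbers in 1 table per library, and the authors also deposited the exon positions of the gene models (numbers of other kinds, coordinates on mm9). Per the submitters' processing notes the tools were HTSeq, Cufflinks 2.1.1 and TopHat2 2.0.10. The sources used here give neither their settings and strandedness nor the libraries used for assembly. Distance is the difference between bounds. The 5 summary lines of each table, which name no gene, were left out.

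Genes kept by filterByExpr of edgeR 4.0.16 (R 4.3.3; minimum count 10, total 15) were compared with its robust quasi-likelihood test (TMM, diet only, 2 residual degrees of freedom, Benjamini-Hochberg over all 12747 genes, threshold 0.05). SE is the log2 fold change over the square root of F. The scripts were tested on simulated data. Replicates differed beyond sampling noise (chi-square per degree of freedom 27.7 and 28.9).

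Members and lists were chosen with earlier results of these data known. Named members are those called, the 10 with the highest level per kb, the 6 highest and 6 lowest fold changes at 0.5 CPM or more without overlap, the 4 with most blocks and any with 1 block, the 4 longest, the 4 farthest and 3 nearest, and the fullest interval. 1 member that the rule picks is not reported here by name. Members named outside this rule, and the GENCODE matching, were chosen after values were seen. Alternatives were DESeq2 1.42.0 and its size factors, limma-voom (limma 3.58.1), other filters, RefSeq-only scaling, no robust step, a replicate block, left-out libraries, other distances and other denominators.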

Additional observations from a re-analysis of the deposited data

How the results depend on the processing

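The members' median log2 fold change stayed between -0.42 and -0.26 under all 12 alternative fits, and the share of gene counts kept its direction, with a log2 ratio of -0.071 when reads in no gene model were added to the total. Counts of calls depended on the fit. Against 78 genes and 2 members past the threshold, DESeq2 gave 366 genes and 7 members, limma-voom 28 and 1, no low-count filter 522 and 13 (1 higher, 12 lower), and a filter of 1 CPM in 2 libraries 46 and 1. Without robust fitting 1 member passed. Leaving out each library in turn gave 15 to 831 genes and 0 to 21 members: 15 and 0 without control replicate 1, 18 and 0 without control replicate 2, 831 and 21 without high-fat replicate 1, and 500 and 8 without high-fat replicate 2. The low-count filter was applied anew in each left-out fit. In the same order, 13144, 13192, 13051 and 13125 genes and 219, 215, 220 and 218 members were tested. The members' median log2 fold changes were -0.36, -0.26, -0.42 and -0.27. The lone library is then assumed to vary like the other diet's pair. These counts therefore cannot say whether members passed more often than other genes, and the cause of the changes in counts was not tested. With a replicate block 113 genes passed (49 higher, 64 lower) and 2 members, XLOC_029801 and XLOC_020436 (adjusted p = 0.0380), but not XLOC_007427 (0.0573). The filter kept XLOC_020436 through its control libraries alone. The replicate numbers were not taken as pairs, since same-numbered libraries deviated together at r = 0.087 only.

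The number of members was 87 beyond 50000 bases and 371 when only RefSeq genes on the same strand counted. Counting the bases between the bounds, chosen after seeing the data, gave 222. Log2 fold changes changed sign for 5 named members, none past the threshold and 4 of them near 0: XLOC_006853 gave -0.021 with limma-voom and -0.011 with the replicate block. Without single libraries XLOC_006853 ran from -0.27 to 0.24, XLOC_010232 from -0.090 to 0.32, XLOC_013011 from -0.24 to 0.25, XLOC_032083 from -0.14 to 0.013 and XLOC_020374 from -0.30 to 6.09, the last against a library with 0 counts and so no measure of size. Values of the other sign were -0.039 (XLOC_006853), -0.024 (XLOC_010232) and -0.082 (XLOC_013011) without control replicate 1. Depth limits the low members most: the median member has 169 counts over 4 libraries.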

Other observations

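A few long noncoding RNAs known to stay in the nucleus were looked at after the members' values were seen, and where the members' own RNA resides was not measured. Malat1 stood at 11407 and 11458 CPM with control diet and 9398 and 9591 CPM with high-fat diet (log2 fold change -0.27, edgeR adjusted p = 0.333). Neat1 measured 843 and 562 CPM against 520 and 528 CPM (-0.42, adjusted p = 0.287). Kcnq1ot1, an imprinted antisense RNA, measured 100.5 and 89.5 CPM against 63.9 and 65.6 CPM and passed the test (log2 fold change -0.55 ± 0.10 SE, edgeR adjusted p = 0.0478). In all 3 both high-fat libraries lay below both control libraries, as for 24.9% of all genes tested and 100 of the 204 members tested.

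XLOC_016459, 2 of whose 5 introns match Gm13657, lay outside the naming rule and was picked after its values were seen. It measured 7.78 and 8.48 CPM with control diet and 4.44 and 4.83 CPM with high-fat diet, without overlap (log2 fold change -0.81 ± 0.17 SE, edgeR adjusted p = 0.0680). The matched members between Ly86 and Rreb1 whose junctions are printed in the report differed little between diets. XLOC_007648 measured 3.45 and 3.86 CPM against 3.58 and 3.35 CPM, and XLOC_008345 measured 1.22 and 1.597 CPM against 1.53 and 1.08 CPM.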
